A study of Homo sapiens with 8 samples.

Results

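The 39 protein-coding HOX genes of the human genome, spread over the clusters HOXA, HOXB, HOXC and HOXD, were followed in a podocyte-derived human cell line whose CRB2 transgene was either off or on. They were taken from the count table by annotation alone: a symbol of the form HOXA, HOXB, HOXC or HOXD plus a number and the type protein_coding in GENCODE release 29. This gave 39 of the 58395 genes counted, 11 in HOXA, 10 in HOXB, 9 in HOXC and 9 in HOXD. Of these, 32 had enough reads to be tested, among 15637 tested genes in all. A second HOXC5 entry, annotated as a processed transcript, was not used as a member.

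RNA was sequenced from AB8 cells, a human line derived from podocytes, the epithelial cells of the kidney's filtration barrier. All cells carried the construct pIND21_hCrb2+GFP_S267A, a CRB2 transgene with GFP and the S267A change that doxycycline switches on, and were used 3 to 8 passages after modification. In the induced group (4 libraries) doxycycline was given for 48 h, and the non-induced control group (4 libraries) received none. The Crumbs protein CRB2 spans the membrane and helps to set apical polarity in epithelia. The comparison asks which transcripts differ once the construct is switched on. Cells given the drug but lacking the construct were not analysed here, so drug, GFP, raised CRB2 and the S267A change cannot be told apart. Whether replicates were grown separately is not in the labels, so the p-values describe variation between these libraries, which may be technical.

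HOX genes encode homeodomain transcription factors that give cells along the body axis their positional identity. Within a cluster, genes nearer the 3′ end are switched on earlier and further towards the head, and genes nearer the 5′ end later and further towards the tail, an arrangement called collinearity. Genes at matching places in different clusters form paralog groups. In the kidney, which forms from intermediate mesoderm of the trunk, the Hox11 paralogs act with EYA1 and PAX2 to switch on GDNF in the metanephric mesenchyme, and adult cells and cultured lines often keep the HOX code of the place they came from.

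The libraries held 16829454 to 23081616 counted reads and 23636 to 24545 detected genes, and 3 reads corresponded to 0.13 to 0.178 CPM, the count scaled to a common library size. CRB2 stood at 8.30 to 26.3 CPM without and 1731 to 4593 CPM with induction. Both libraries numbered 1, one in each group, stood apart from the others, with the lowest CRB2 of their groups (167 and 34245 reads). Each lay above the other 3 libraries of its group, in both groups, for 28.2% of all tested genes, and below them for 28.1%, against at most 9.53% and 9.13% for numbers 2 to 4. Among the podocyte's defining markers, NPHS1 (nephrin) was near 0, at no more than 0.0951 CPM, while WT1 stood at 0.505 to 4.599 CPM, PODXL at 2.09 to 4.15 CPM and SYNPO at 20.2 to 50.4 CPM. Summed markers of endothelial cells (2.48 to 5.74 CPM over all libraries), tubular cells (1.12 to 2.63 CPM) and immune cells (2.81 to 4.38 CPM) were low. Mesangial and fibroblast markers summed to 1420 to 1710 CPM, mostly COL1A1 (1219 to 1488 CPM), with THY1 at 108 to 165 CPM, LUM at 46.6 to 96.7 CPM and PDGFRB at 10.8 to 17.6 CPM, and with PDGFRA and ITGA8 at 0 reads.

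The cells carried reads from all 4 clusters, and in each cluster levels were far lower at the 5′ end. Levels were compared between genes as CPM per kb of exon, which divides the CPM by the length of the gene's merged exons, and are given as mean ± SD over the 8 libraries. By this measure 29 of 39 members reached 1 CPM per kb and 11 reached 5 CPM per kb. HOXB9 and HOXB7 led, at percentiles 84.0 and 81.1 of the tested genes. HOXB1 had 0 reads in every library, where counting error alone allows up to 3.69 reads in each library taken by itself (exact Poisson 95% limit). HOXA13 stood at 0.0154 of the level of HOXA11, HOXB13 at 0.0311 of that of HOXB9, HOXC12 at 0.00849 of that of HOXC11 and HOXD12 at 0.0106 of that of HOXD11.

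**Figure D1:**
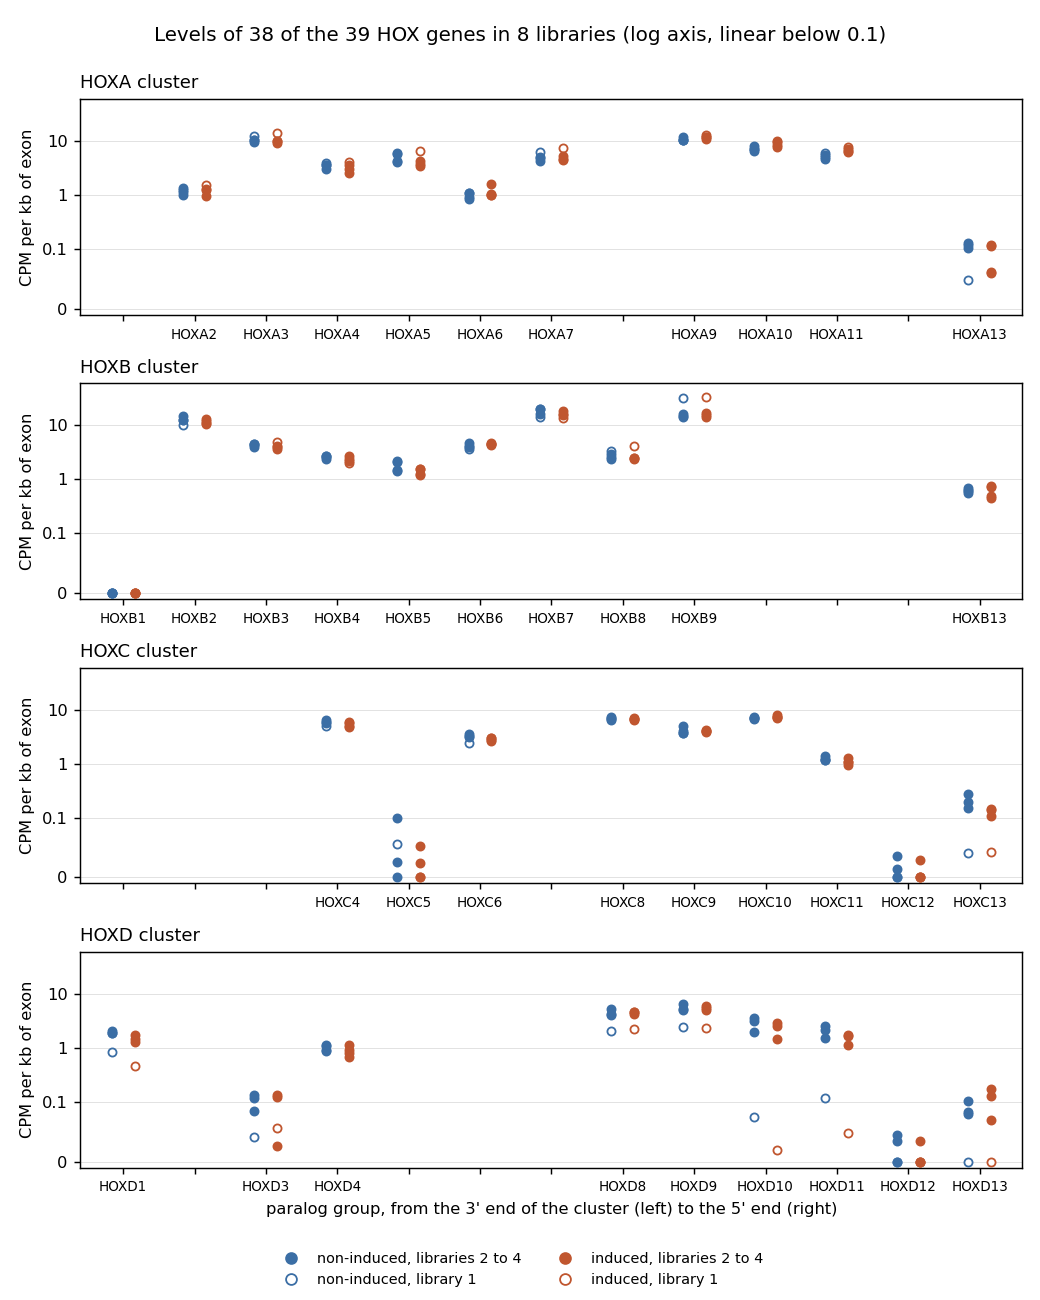
Level of 38 of the 39 HOX genes in each library, in CPM per kb of exon on a log axis that is linear below 0.1, with genes placed by paralog group from the 3′ end (left) to the 5′ end (right) of each cluster. Filled points are libraries 2 to 4 and open points library 1 of the non-induced (blue) and induced (orange) groups, without error bars. Genes of paralog groups 12 and 13 lie below 1 CPM per kb in every cluster that has them, as do HOXB1, HOXC5 and HOXD3, and open points separate from filled ones most clearly at HOXD10 and HOXD11.

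Summed over its members, HOXB gave 65.1 CPM per kb (39.8% of the total over all members), HOXA 55.7 (34.1%), HOXC 27.9 (17.1%) and HOXD 14.5 (9.0%). Over paralog groups, group 9 gave the highest sum, 39.98 CPM per kb or 24.4%, and groups 12 (0.0241) and 13 (0.924) the lowest. The cluster sums were 53.8 ± 4.31 without and 57.5 ± 7.92 CPM per kb with induction for HOXA (SD, n = 4), 66.4 ± 6.17 and 63.8 ± 8.05 for HOXB, 28.2 ± 2.09 and 27.5 ± 0.93 for HOXC, and 15.2 ± 5.80 and 13.8 ± 5.37 for HOXD. In each cluster the group means differed by less than the larger SD. Within same-numbered pairs the induced library was higher in 4 of 4 pairs for HOXA, 2 of 4 for HOXB, 1 of 4 for HOXC and 0 of 4 for HOXD, and the sums were not tested. With lengths that counted only exon bases free of other genes the order of the leading clusters turned, with HOXA at 80.6 and HOXB at 68.9 CPM per kb. Over all members the sum was 164 ± 7.62 and 163 ± 10.2 CPM per kb. The HOXD sum was 6.61 and 5.87 CPM per kb in the libraries numbered 1 and 15.0 to 18.6 in the other 6. Without the libraries numbered 1 the HOXD mean was 17.3 CPM per kb.

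Levels did not change smoothly along a cluster. Of the 35 pairs of neighbours within a cluster, 7 had overlapping ranges over the 8 libraries: HOXA4 and HOXA5, HOXA10 and HOXA11, HOXB4 and HOXB5, HOXD8 and HOXD9, HOXD9 and HOXD10, HOXD10 and HOXD11, and HOXD12 and HOXD13. When all 39 members were ordered by level instead, 37 of 38 neighbours in that order overlapped, and the exception was the step from HOXB13 to HOXC13. By ranges, the order is therefore resolved only over several places. Ranges do not compare genes within a library: HOXA10 stood above HOXA11 in every library although their ranges overlapped. Without the libraries numbered 1, HOXB7 led at 17.9 CPM per kb and HOXB9 followed at 15.4.

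In HOXA, the cluster on chromosome 7 (GRCh38, minus strand), the highest level was that of HOXA9, a factor of blood stem cells, at 11.4 ± 0.875 CPM per kb. HOXA3, which patterns the thymus and parathyroid, followed at 10.8 ± 1.62 CPM per kb, and HOXA10, needed for the uterus, at 8.18 ± 1.23 CPM per kb. HOXA11, one of the kidney-inducing Hox11 paralogs, stood at 6.15 ± 1.06 CPM per kb, HOXA7 at 5.26 ± 1.06 CPM per kb and HOXA5, which acts in lung development, at 4.79 ± 1.16 CPM per kb. Lower levels were those of HOXA4 (3.44 ± 0.502 CPM per kb), HOXA2, which sets the identity of the second pharyngeal arch (1.23 ± 0.195 CPM per kb), and HOXA6 (1.08 ± 0.224 CPM per kb). HOXA13, a gene of the digits and genital tract, had 79 reads in all and 0.0945 ± 0.0321 CPM per kb. Of the exon bases of HOXA7, 37.5% were free of other annotated genes, against 52.7% for HOXA4 and 59.9% for HOXA6. HOXA7 shares 1507 bases with the antisense RNA HOXA-AS3 on the opposite strand. When lengths counted free bases only, HOXA7 stood below HOXA9 but above HOXA3 and HOXA10. The place of HOXA7 in the cluster thus depends on how shared reads were counted.

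HOXB (chr17:48528526-48729178, minus strand) held the genes of highest and lowest level. HOXB9, a gene of the thoracic axis, stood at 19.8 ± 8.18 CPM per kb, HOXB7, active in the ureteric bud and collecting duct of the developing kidney, at 16.97 ± 2.50 CPM per kb, and HOXB2, a hindbrain gene, at 12.2 ± 1.54 CPM per kb. HOXB6 (4.32 ± 0.361 CPM per kb) and HOXB3 (4.26 ± 0.412 CPM per kb) were level with each other, followed by HOXB8 (2.85 ± 0.619 CPM per kb), HOXB4, which expands blood stem cells (2.45 ± 0.262 CPM per kb), and HOXB5 (1.60 ± 0.368 CPM per kb). HOXB13, known from the prostate and set apart on the 5′ side of the cluster, reached 0.614 ± 0.104 CPM per kb. HOXB1, a gene of the early hindbrain, was the only member with no read in any library.

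In HOXC (chr12:53938765-54056030, plus strand), HOXC10, which marks lumbar motor neurons, led at 7.21 ± 0.409 CPM per kb, with HOXC8 at 6.78 ± 0.307 CPM per kb and HOXC4 at 5.50 ± 0.612 CPM per kb. HOXC9, which marks thoracic motor neurons, stood at 4.07 ± 0.406 CPM per kb, HOXC6 at 2.96 ± 0.356 CPM per kb and HOXC11 at 1.15 ± 0.134 CPM per kb. The remaining members had few reads over all 8 libraries: 9 for HOXC5, 5 for HOXC12 and 54 for HOXC13, a gene of hair and nail. Of the exon bases of HOXC5, 40.1% were free of other annotated genes. The 1081 shared bases all lie in the second HOXC5 entry, and 611 of them also in the same-strand gene AC012531.2. The low count of HOXC5 may thus depend on how shared reads were counted.

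HOXD (chr2:176092891-176190907, plus strand) had the lowest sum. Its central members led, with HOXD9 at 4.74 ± 1.55 CPM per kb and HOXD8 at 3.89 ± 1.15 CPM per kb, then HOXD10 at 1.96 ± 1.36 CPM per kb, HOXD1 at 1.45 ± 0.563 CPM per kb, HOXD11 at 1.35 ± 0.884 CPM per kb and HOXD4 at 0.934 ± 0.162 CPM per kb. HOXD3, HOXD12 and HOXD13, the last a gene of digit formation, had 52, 3 and 30 reads in all. HOXD4 and HOXD3 share most of their exon bases with a same-strand protein-coding entry, AC009336.2 (1178 and 2206 bases), and only 19.5% and 25.9% of their bases were free of other genes. When lengths counted free bases only, HOXD4 led HOXD at 4.78 CPM per kb, so its place in the cluster depends on how shared reads were counted.

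Induction was accompanied by small differences in HOX transcripts. HOXA10 and HOXA11, neighbours near the 5′ end of HOXA, were higher in the induced library of all 4 same-numbered pairs. Both passed the threshold (adjusted p under 0.05) when the replicate number was fitted as a block, which compares libraries of the same number, and neither did without it over all 8 libraries. No member was called lower in either fit. In counts, the edgeR quasi-likelihood test with Benjamini-Hochberg adjustment over all 15637 genes called 0 of 32 members without the block (of all tested genes 0.0384% were called, 0.032% higher and 0.0064% lower), and 3 of 32 had an unadjusted p under 0.05 (9.38% of all genes). DESeq2 without a block also called 0, of 31 members with an adjusted p, and 188 of 13816 genes in all. With the block, edgeR called 2 of 32 members, or 6.25%, against 13.8% of all tested genes, both of them higher (7.51% of all genes were called higher and 6.29% lower). A block fit with DESeq2 called the same 2, of 31 members with an adjusted p, and 1048 of 13834 genes in all. The share of HOX genes called was thus no higher than that of all tested genes.

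**Figure D2:**
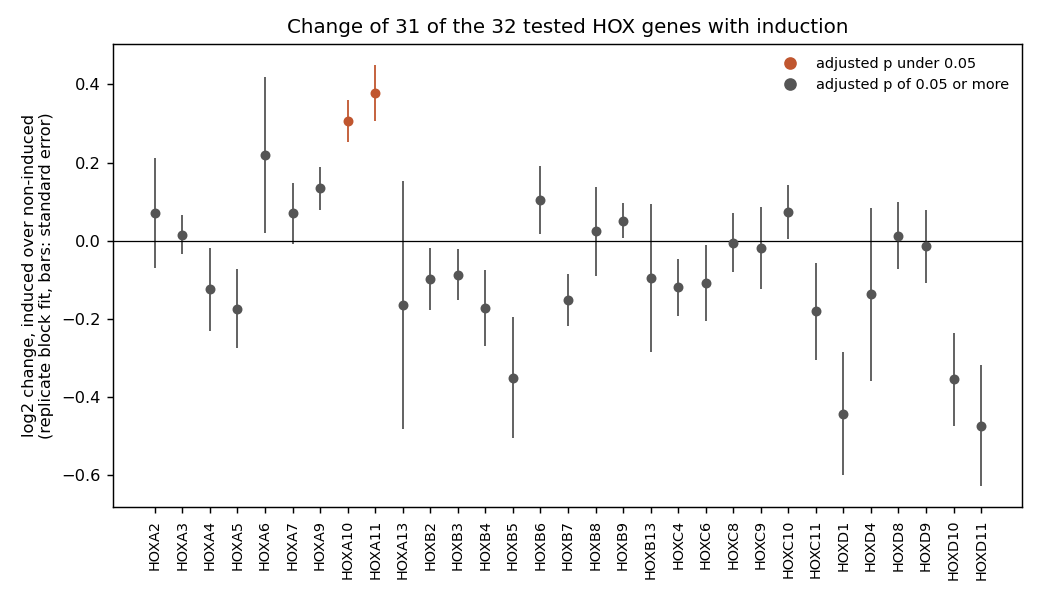
Log2 change (induced over non-induced) of 31 of the 32 tested HOX genes in the replicate block fit, with bars of 1 standard error, in cluster order from 3′ to 5′. Orange points (HOXA10 and HOXA11) have an adjusted p under 0.05, and the other 29 lie between -0.47 and 0.22.

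HOXA10 (ENSG00000253293, chr7:27170591-27180261, minus strand) was measured at 27.1, 26.2, 24.7 and 30.3 CPM in libraries 1 to 4 of the non-induced group and 36.4, 31.0, 29.6 and 37.2 CPM in those of the induced group. The induced libraries lay mostly above the non-induced ones, but the ranges overlapped, since non-induced library 4 stood above induced library 3. Its log2 change was 0.31 (SE 0.10, edgeR adjusted p = 0.366) without and 0.31 (SE 0.05, edgeR adjusted p = 0.00218) with the block. The induced library exceeded its same-numbered partner 1.34-, 1.18-, 1.20- and 1.23-fold in pairs 1 to 4.

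HOXA11 (ENSG00000005073, chr7:27181510-27185223, minus strand) was measured at 13.96, 11, 11.8 and 12.6 CPM in libraries 1 to 4 of the non-induced group and 18.4, 15.0, 14.4 and 16.4 CPM in those of the induced group. All 4 induced libraries lay above all 4 non-induced ones. It was the only tested member whose groups did not overlap in this direction, where 3.82% of all tested genes had such groups, and 0 members had groups that did not overlap in the other (3.22% of all genes). The log2 change of HOXA11 was 0.38 (SE 0.11, edgeR adjusted p = 0.322) without and 0.38 (SE 0.07, edgeR adjusted p = 0.0036) with the block, and the ratios within pairs 1 to 4 were 1.32, 1.36, 1.22 and 1.30. Without both libraries numbered 1 and without a block, HOXA11 passed (edgeR adjusted p = 0.0495) and HOXA10 did not (edgeR adjusted p = 0.179). In that fit 242 of 15769 tested genes were called higher.

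**Figure D3:**
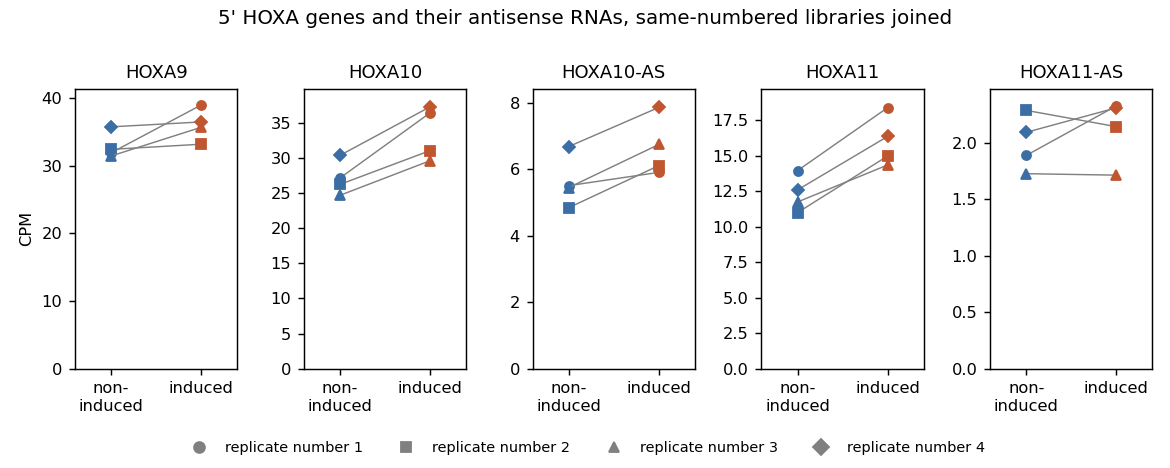
CPM of HOXA9, HOXA10, HOXA11 and the antisense RNAs HOXA10-AS and HOXA11-AS in the non-induced (blue, left) and induced (orange, right) libraries, with lines joining libraries of the same replicate number and axes that start at 0. All 4 lines go up for HOXA9, HOXA10, HOXA10-AS and HOXA11, by different amounts, and 2 of 4 go up for HOXA11-AS.

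The neighbour on the 3′ side, HOXA9, was measured at 31.9, 32.5, 31.5 and 35.8 CPM without and 39.02, 33.2, 35.7 and 36.5 CPM with induction. It was higher in the induced library of every pair, with a block log2 change of 0.13 (SE 0.06) that did not pass (edgeR adjusted p = 0.124). The antisense RNA HOXA10-AS shares 608 exon bases with HOXA10 on the opposite strand and stood at 5.51, 4.85, 5.46 and 6.69 CPM without and 5.91, 6.12, 6.75 and 7.87 CPM with induction. HOXA11-AS shares 717 bases with HOXA11 and stood at 1.89, 2.29, 1.73 and 2.09 CPM without and 2.33, 2.14, 1.71 and 2.31 CPM with induction. The libraries were made with a directional kit, but how the counting treated strand is not given in the sources used here, so reads of a gene and its antisense partner may not be separated. Of HOXA10 73.7% and of HOXA11 68.9% of the exon bases were free of any other annotated gene, and HOXA10 shares a further 368 bases with the same-strand gene AC004080.3.

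The start regions of HOXA10 and HOXA11, the members called, are printed from RefSeq (GRCh38.p14), 5′ to 3′ on the gene's strand, from 250 bases before to 50 bases after the annotated start, in lower case with capitals for TATAAA (the TATA box), for CCAAT (the CAAT box), for CACGTG (an E-box) and for TGATTNAT (a composite HOX and PBX site), on either strand. HOXA10 has 2 annotated starts:
HOXA10, chr7:27174271-27174570, minus strand: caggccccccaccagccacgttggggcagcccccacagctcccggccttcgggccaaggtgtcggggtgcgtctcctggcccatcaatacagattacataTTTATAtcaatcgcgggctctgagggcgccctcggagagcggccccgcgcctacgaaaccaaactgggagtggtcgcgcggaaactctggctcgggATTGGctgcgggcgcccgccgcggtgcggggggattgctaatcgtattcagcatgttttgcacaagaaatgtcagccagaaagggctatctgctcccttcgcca
HOXA10, chr7:27179812-27180111, minus strand: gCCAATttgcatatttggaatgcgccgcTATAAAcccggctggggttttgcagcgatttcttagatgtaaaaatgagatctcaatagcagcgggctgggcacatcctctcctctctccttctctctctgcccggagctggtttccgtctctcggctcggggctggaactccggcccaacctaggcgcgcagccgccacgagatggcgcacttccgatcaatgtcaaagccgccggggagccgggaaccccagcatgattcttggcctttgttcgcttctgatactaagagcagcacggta
HOXA11, chr7:27185183-27185482, minus strand: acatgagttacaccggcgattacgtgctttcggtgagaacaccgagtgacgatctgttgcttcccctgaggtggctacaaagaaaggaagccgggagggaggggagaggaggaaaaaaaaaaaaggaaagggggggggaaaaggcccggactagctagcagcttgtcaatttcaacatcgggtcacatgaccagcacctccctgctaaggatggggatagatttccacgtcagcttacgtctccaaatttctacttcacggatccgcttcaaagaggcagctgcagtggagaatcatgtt

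Both HOXA10 windows held a TATAAA and a CCAAT match. In the first window they lay 150 and 54 bases before the start, on the strand opposite to the printed one. In the second they lay at 222 and 249 bases, on the printed strand. The HOXA11 window held none of the 4. Windows were present in the RefSeq table for 20 of 39 members, 26 distinct windows in all. CCAAT was found in 17 of these 26 windows (65.4%) against 34.6% of all 35116 windows, TATAAA in 5 (19.2% against 11.5%), CACGTG in 9 (34.6% against 7.26%) and TGATTNAT in 2 (7.69% against 2.82%). Among 6 further motifs searched on both strands, TTTATNG was found in 6 windows (23.1% against 9.73%), TTAATTA in 1 (3.85% against 2.67%), TTTACGA in 1 (3.85% against 0.541%), CGCGCC in 13 (50% against 28.4%), and TGACGTCA and AGGTCA in 0 (1.85% and 13.8% of all windows). TTTATNG and TATAAA matches can overlap. The median GC content was 58% in the HOX windows and 58.7% in all windows, and the median number of CG dinucleotides 22.5 against 14. A match is a run of letters in the window, and binding was not measured.

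The other 30 tested members were not called. Their block log2 changes ran from -0.47 to 0.22 with SEs of 0.04 to 0.32 and edgeR adjusted p from 0.0559 to 0.974. Over all 32 tested members, 12 estimates lay above and 20 below 0, and their median was -0.08 without and -0.091 with the block, against 0.0003 over all tested genes. Members with the same sign in 4 of 4 pairs numbered 3 upwards (HOXA9, HOXA10 and HOXA11) and 5 downwards, where 18.6% and 17% of all tested genes did so.

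Among the 5 downwards were HOXC11, HOXD1, HOXD10 and HOXD11, and none of the 5 passed the threshold of 0.05. HOXD11 had a block log2 change of -0.47 (SE 0.15, edgeR adjusted p = 0.0559), HOXD10 of -0.35 (SE 0.12, adjusted p = 0.0609) and HOXD1 of -0.44 (SE 0.16, adjusted p = 0.0772). These 3 would pass at an FDR of 0.1 with the block, a threshold chosen after seeing the data. Without pair 1 the block estimate was -0.46 (SE 0.15, edgeR adjusted p = 0.0655) for HOXD11 and -0.34 (SE 0.11, edgeR adjusted p = 0.0597) for HOXD10.

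In HOXA, HOXA2 stood at 3.13, 2.84, 3.36 and 2.45 CPM without and 3.84, 3.06, 3.14 and 2.36 CPM with induction, and HOXA3 at 53.5, 41.1, 45.5 and 44.8 CPM without and 60.7, 40.1, 43.9 and 43.2 CPM with induction. In both genes the ranges of the groups overlapped, and HOXA3 was highest in library 1 of both groups. HOXA4 stood at 6.80, 5.41, 6.43 and 6.33 CPM without and 7.08, 4.5, 5.23 and 6.29 CPM with induction. HOXA5 stood at 10.3, 7.09, 7.37 and 9.80 CPM without and 11.2, 5.94, 6.42 and 7.29 CPM with induction. HOXA6 stood at 1.39, 1.07, 1.21 and 1.43 CPM without and 1.31, 1.31, 1.33 and 2.05 CPM with induction. The groups overlapped in each, library 1 was the highest of its group for HOXA4 and HOXA5, and library 4 was the highest for HOXA6 in both groups. HOXA7 stood at 15.3, 10.2, 11.8 and 12.1 CPM without and 17.7, 10.8, 11.1 and 12.6 CPM with induction, again with library 1 highest in both groups, and HOXA13, at the 5′ end, at 0.248, 0.606, 0.653 and 0.538 CPM without and 0.303, 0.612, 0.571 and 0.315 CPM with induction. HOXA13 values rest on 5 to 14 reads a library.

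In HOXB, HOXB2 stood at 24.1, 29.4, 30.02 and 35.0 CPM without and 25.1, 28.7, 30.7 and 25.5 CPM with induction, HOXB3 at 34.4, 29.6, 34.5 and 32.4 CPM without and 36.1, 30.9, 29.1 and 27.2 CPM with induction and HOXB4 at 10.1, 9.70, 9.09 and 10.1 CPM without and 7.48, 10.1, 8.85 and 8.18 CPM with induction. Their block log2 changes were -0.10 (SE 0.08), -0.09 (SE 0.06) and -0.17 (SE 0.10), all within overlapping groups. HOXB5, a gene of neural crest and gut innervation, stood at 2.88, 3.03, 4.29 and 4.54 CPM without and 2.48, 3.15, 3.14 and 2.62 CPM with induction, with non-induced libraries 3 and 4 above the rest and a block log2 change of -0.35 (SE 0.15). HOXB6 stood at 9.59, 10.4, 12.4 and 10.99 CPM without and 11.7, 12.2, 11.6 and 11.1 CPM with induction and HOXB7 at 22.1, 25.3, 30.4 and 31.4 CPM without and 20.9, 25.4, 23.5 and 28.3 CPM with induction. Their block log2 changes were 0.10 (SE 0.09) and -0.15 (SE 0.07), in opposite directions and neither called. HOXB8 stood at 6.90, 4.90, 5.32 and 5.97 CPM without and 8.49, 5.16, 4.85 and 5.14 CPM with induction, and HOXB13 at 2.14, 2.24, 2.38 and 1.97 CPM without and 2.58, 1.70, 1.57 and 2.47 CPM with induction. Library 1 was the highest of both groups for HOXB8, and no order of the groups was seen for HOXB13.

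In HOXC, HOXC4 stood at 13.4, 15.99, 15.3 and 17.7 CPM without and 12.8, 13.4, 15.5 and 15.8 CPM with induction, HOXC6 at 8.54, 11.2, 11.5 and 12.4 CPM without and 9.86, 10.6, 10.7 and 9.13 CPM with induction and HOXC8 at 12.8, 11.9, 13.2 and 13.56 CPM without and 13.4, 12.5, 12.2 and 12.9 CPM with induction. The groups overlapped in all 3, and the block log2 changes were -0.12 (SE 0.07), -0.11 (SE 0.10) and -0.01 (SE 0.08). HOXC9 stood at 6.26, 6.71, 6.25 and 8.36 CPM without and 6.62, 6.55, 7.13 and 6.71 CPM with induction, and HOXC10 at 15.7, 16.1, 17.3 and 16.4 CPM without and 16.5, 16.9, 16.8 and 18.8 CPM with induction. SDs within a group were at most 0.712 CPM for HOXC8 and 1.04 CPM for HOXC10. HOXC11, of the same paralog group as HOXA11 and HOXD11, stood at 3.73, 3.96, 3.87 and 4.42 CPM without and 3.44, 3.10, 3.42 and 4.20 CPM with induction, lower in the induced library of 4 of 4 pairs with a block log2 change of -0.18 (SE 0.12), not called. The Hox11 paralogs thus had estimates of 0.38 for HOXA11, -0.18 for HOXC11 and -0.47 for HOXD11, of which that of HOXA11 passed, and differences between these paralogs were not tested. The sum over paralog group 11 was 8.14 ± 0.63 without and 9.17 ± 0.26 CPM per kb with induction (SD, n = 4).

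The largest differences among the HOX genes lay between libraries of the same group. In library 1 of both groups HOXD10 and HOXD11 were almost absent, and HOXD1, HOXD8 and HOXD9 stood at 0.306 to 0.491 of the mean of the other 3 libraries of their group. These libraries were singled out after their values were seen, so the differences are described with 95% intervals for counting error only and without a test. HOXD10 (ENSG00000128710, chr2:176108790-176119942, plus strand) had 4, 180, 209 and 89 reads in libraries 1 to 4 of the non-induced group and 1, 153, 166 and 76 in those of the induced group, or 0.199, 8.39, 9.74 and 5.32 CPM without and 0.0505, 6.68, 7.89 and 3.99 CPM with induction. The other 3 libraries together were 40.3-fold (15.7 to 149) above library 1 without and 124-fold (22.1 to 4910) with induction. The wide second interval follows from the single read of induced library 1. In a bulk library, fewer cells with a transcript and less of it per cell cannot be told apart.

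HOXD11 (ENSG00000128713, chr2:176104216-176109754, plus strand), the neighbour of HOXD10, had 5, 95, 115 and 54 reads without and 2, 82, 73 and 46 reads with induction, or 0.248, 4.43, 5.36 and 3.23 CPM without and 0.101, 3.58, 3.47 and 2.41 CPM with induction. The ratio of the other 3 libraries to library 1 was 17.8 (7.54 to 55.4) and 31.6 (8.63 to 263). HOXD10 and HOXD11 share 452 exon bases on the same strand, so their counts may not be fully independent, depending on how shared reads were counted. HOXD13 had 0 reads in both libraries numbered 1 and 3 to 9 in each of the others. Counting error alone allows up to 3.69 reads (exact Poisson 95% limit) where 0 were seen, and of the other 6 libraries only the 9 reads of induced library 2 (4.12 to 17.1) lay wholly above that.

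**Figure D4:**
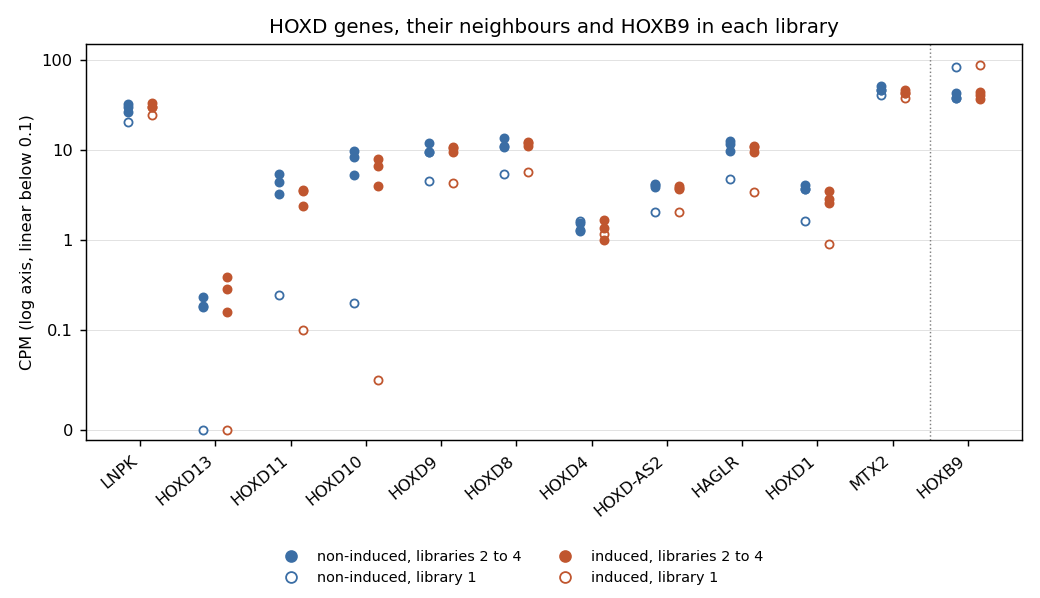
CPM (log axis, linear below 0.1) of HOXD genes, the cluster RNAs HOXD-AS2 and HAGLR, the flanking genes LNPK and MTX2 and, right of the dotted line, HOXB9, with one point per library. Open points (library 1) lie far below filled points (libraries 2 to 4) at HOXD10 and HOXD11, by a smaller distance at HOXD1, HOXD8, HOXD9, HAGLR and HOXD-AS2, and above them at HOXB9.

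The start regions of HOXD10 and HOXD11 are shown because these neighbours were low together, from RefSeq (GRCh38.p14) with the same window and the same motifs in capitals:
HOXD10, chr2:176116528-176116827, plus strand: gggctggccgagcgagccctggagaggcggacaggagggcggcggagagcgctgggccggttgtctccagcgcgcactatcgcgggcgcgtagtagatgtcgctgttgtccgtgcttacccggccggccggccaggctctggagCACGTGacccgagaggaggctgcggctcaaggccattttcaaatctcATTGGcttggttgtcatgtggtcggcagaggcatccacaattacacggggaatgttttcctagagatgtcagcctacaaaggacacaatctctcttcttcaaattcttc
HOXD11, chr2:176107030-176107329, plus strand: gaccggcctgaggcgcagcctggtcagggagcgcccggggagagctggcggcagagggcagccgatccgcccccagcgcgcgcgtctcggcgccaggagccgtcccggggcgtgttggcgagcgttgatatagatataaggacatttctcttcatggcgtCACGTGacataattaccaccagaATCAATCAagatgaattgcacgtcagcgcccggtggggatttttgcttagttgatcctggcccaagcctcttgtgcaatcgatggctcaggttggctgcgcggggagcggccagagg

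Each window held 1 CACGTG match, 106 bases before the start in HOXD10 and 90 bases before it in HOXD11. HOXD10 also held a CCAAT match at 59 bases, and HOXD11 a TGATTNAT match at 67 bases, both on the strand opposite to the printed one. CACGTG was also found in windows of HOXA3, HOXA4, HOXA7, HOXA9, HOXD1, HOXD3 and HOXD13. Whether the motif bears on levels in library 1 was not tested.

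Further along the cluster the gap narrowed. HOXD9 stood at 4.47, 9.56, 9.60 and 12.1 CPM without and 4.30, 10.9, 9.56 and 10.4 CPM with induction, with the other 3 libraries 2.30-fold (1.84 to 2.90) and 2.40-fold (1.91 to 3.04) above library 1. HOXD8 stood at 5.36, 13.7, 11.1 and 10.7 CPM without and 5.76, 12.2, 12.0 and 11.1 CPM with induction, a ratio of 2.22 (1.81 to 2.74) and 2.04 (1.68 to 2.51). At the 3′ end HOXD1 stood at 1.64, 3.73, 4.06 and 3.70 CPM without and 0.910, 2.88, 2.57 and 3.46 CPM with induction, a ratio of 2.34 (1.62 to 3.49) and 3.25 (2.00 to 5.60). Library 1 was thus the lowest of both groups for HOXD1, HOXD8, HOXD9, HOXD10 and HOXD11. HOXD4, in the same cluster, did not share this: it stood at 1.64, 1.31, 1.26 and 1.55 CPM without and 1.16, 1.35, 1.67 and 0.997 CPM with induction, and library 1 was the highest of the non-induced group and within the induced one.

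The cluster RNAs HAGLR and HOXD-AS2 and the flanking genes LNPK and MTX2 were also lowest in library 1 of both groups. So were 28.1% of all tested genes. HAGLROS, another RNA of the cluster, and EVX2, beside the cluster, had at most 2 reads in any library. HAGLR, transcribed opposite to HOXD1 and HOXD3, stood at 4.77 CPM in library 1 against 9.80 to 12.5 in libraries 2 to 4 without induction, and at 3.39 against 9.44 to 11.1 with it. HOXD-AS2 stood at 2.04 against 3.92 to 4.15 CPM and at 2.07 against 3.66 to 3.94. LNPK, on the 5′ side of the cluster, stood at 20.6 against 26.5 to 32.2 CPM and at 24.6 against 29.9 to 33.2, and MTX2, on the 3′ side, at 40.3 against 46.6 to 51.5 and at 38.0 against 43.0 to 46.2.

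The opposite pattern was seen outside HOXD. HOXB9 (ENSG00000170689, chr17:48621159-48626356, minus strand, with no base shared with another gene) stood at 82.3, 37.4, 37.8 and 42.6 CPM in libraries 1 to 4 of the non-induced group and 87.6, 36.3, 40.5 and 44.1 CPM in those of the induced group. Library 1 was 2.11-fold (1.98 to 2.25) above the other 3 without and 2.19-fold (2.06 to 2.33) with induction, while the groups themselves did not separate, at 50.02 ± 21.6 and 52.1 ± 23.9 CPM (SD, n = 4). Besides HOXB9, HOXA3, HOXA4, HOXA5, HOXA7, HOXA11 and HOXB8 were above the other 3 libraries in both groups. In all, 7 of 32 tested members were above in both groups (21.9%, against 28.2% of all tested genes) and 11 below (34.4%, against 28.1%), shares near those over all genes. The 6 below outside HOXD were HOXA13, HOXB2, HOXB5, HOXB7, HOXC4 and HOXC10. WT1 was also lowest in library 1, with 15 and 10 reads against 54 to 90 in libraries 2 to 4. What set the libraries numbered 1 apart was not tested.

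Genes that act on or with the HOX clusters were read from the same fits. Without the block 0 genes of any of the 14 lists were called, with edgeR, and DESeq2 called 3 (2 higher and 1 lower). Of 13816 genes in all, DESeq2 without a block called 80 higher and 108 lower. With the block edgeR called 20 higher and 10 lower over the 14 lists, and 14 and 12 when pair 1 was left out. Of all tested genes the block fit called 7.51% higher and 6.29% lower, and each list's count is to be read beside these shares. The adjusted p-values that follow are from the edgeR block fit.

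Of the 21 tested Trithorax and HOX-activating chromatin factors, which keep HOX genes switched on, 8 were called higher and 0 lower. The shares over all tested genes were 7.51% and 6.29%. The list's median log2 change was 0.13 against 0.0003 over all genes. ASH1L, a histone methyltransferase, rose by 0.25 in log2 (SE 0.04, edgeR adjusted p = 0.00176), from 74.1 ± 7.84 to 88.3 ± 6.57 CPM (SD, n = 4), and KMT2A, the MLL methyltransferase that binds HOX promoters, by 0.21 (SE 0.04, edgeR adjusted p = 0.00316), from 172 ± 14.2 to 199 ± 16.1 CPM. KAT6A, an acetyltransferase, rose by 0.28 (edgeR adjusted p = 0.00322), and MEN1, which tethers KMT2A to chromatin, by 0.21 (edgeR adjusted p = 0.00654). All 4 were higher in 4 of 4 pairs. Of 31 Polycomb group genes, which keep HOX genes silent, 3 were called higher and 3 lower (7.51% and 6.29% of all tested genes). The median log2 change of these 31 was 0.04. JARID2, a subunit that guides the PRC2 complex, fell by 0.33 (SE 0.05, edgeR adjusted p = 5.27e-04), from 55.3 ± 1.49 to 44.0 ± 1.71 CPM, PHF19 rose by 0.24 (edgeR adjusted p = 0.00186), PHC2 fell by 0.19 (edgeR adjusted p = 0.00543) and PHC3 rose by 0.16 (edgeR adjusted p = 0.0206). The other 2 called were SUZ12, a core subunit of PRC2, which rose by 0.14 (edgeR adjusted p = 0.0315), and PCGF2, a subunit of PRC1, which fell by 0.14 (edgeR adjusted p = 0.0286). The catalytic subunit EZH2 stood at 103 ± 13.0 and 103 ± 16.9 CPM.

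Of the 8 tested TALE homeodomain genes, the DNA-binding partners of HOX proteins, 0 were called. The lowest p-values were those of PBX4, with a log2 change of -0.38 (SE 0.13, edgeR adjusted p = 0.0635), and MEIS1, with 0.43 (SE 0.21, edgeR adjusted p = 0.186). Without and with induction, PBX3 stood at 73.2 ± 3.87 and 77.2 ± 2.71 CPM, PBX2 at 51.6 ± 1.76 and 51.9 ± 2.104 CPM, and MEIS2 at 18.6 ± 1.38 and 17.7 ± 1.90 CPM. Retinoic acid induces 3′ HOX genes in the embryo. Of 10 tested genes of its pathway 0 were called higher and 2 lower (7.51% and 6.29% of all tested genes). DHRS3, a retinaldehyde reductase, fell by 0.78 (SE 0.18, edgeR adjusted p = 0.0212), and STRA6, a retinol transporter, fell by 0.44 (SE 0.14, edgeR adjusted p = 0.0435). DHRS3 had 225 to 311 reads in the libraries numbered 1 and 24 to 144 in the others. Of 4 tested genes among other inducers and insulators 0 were called, and those with the lowest p were MAZ, at 0.11 (edgeR adjusted p = 0.0537), and CTCF, at 0.10 (edgeR adjusted p = 0.109).

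Of 12 tested long noncoding RNAs of the clusters, 1 was called, and it was higher (7.51% of all tested genes were called higher). HOXA-AS2, which lies opposite to HOXA3 and HOXA4 (374 and 254 shared exon bases), was measured at 8.49, 7.55, 8.81 and 8.84 CPM without and 9.91, 8.96, 10.99 and 12.3 CPM with induction and rose by 0.31 (SE 0.08, edgeR adjusted p = 0.0242), with 4 of 4 pairs higher. HOTAIR, of HOXC, stood at 0.932 to 1.69 CPM without and 0.904 to 2.17 CPM with induction, and HOTTIP, at the 5′ end of HOXA, had 0 or 1 read in each library. Host-cluster microRNA genes gave next to no reads in these libraries: MIR10A, MIR10B, MIR196A2 and MIR196B had 0 reads, MIR615 had 1 and MIR196A1 had 7 to 16 a library. Libraries of this kind do not measure mature microRNAs. Of 13 tested genes flanking the clusters 2 were called, both higher and next to HOXC (7.51% of all tested genes were called higher). CBX5, the heterochromatin protein HP1 alpha, rose by 0.27 (SE 0.04, edgeR adjusted p = 0.00123) and CALCOCO1 by 0.22 (SE 0.05, edgeR adjusted p = 0.0164).

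Among 4 tested genes that HOX proteins regulate in the developing kidney, GDNF, the ureteric bud attractant, fell by 0.43 (SE 0.07, edgeR adjusted p = 0.00181), from 44.2 ± 11.8 to 32.6 ± 7.48 CPM, and PAX2 rose by 0.36 (SE 0.06, edgeR adjusted p = 0.00208), from 17.1 ± 4.42 to 22.0 ± 5.62 CPM. In both genes library 1 was the lowest of each group, and the pairs moved the same way 4 of 4 times. The other genes of this list had too few reads to be tested, among them EYA1 (at most 0.38 CPM) and ITGA8 (0 reads). Of 17 tested homeobox and T-box genes of regional identity outside the clusters, PAX2 was higher and 3 lower (7.51% and 6.29% of all genes). Among these TBX3 fell by 0.38 (SE 0.07, edgeR adjusted p = 0.0026) and PAX8, the kidney and thyroid lineage factor, fell by 0.35 (SE 0.08, edgeR adjusted p = 0.041), from 457 ± 26.4 to 361 ± 58.5 CPM. Of 12 tested podocyte markers 4 were called higher with the block and 1 lower (7.51% and 6.29% of all tested genes). FAT1 rose by 0.50, PODXL by 0.49, PLCE1 by 0.46 and TJP1 by 0.23 in log2, and CDKN1C fell by 0.30. Of the tested endothelial, tubular and immune markers 0 were called, and of 5 mesangial and fibroblast markers PDGFRB, which rose by 0.34 (edgeR adjusted p = 0.0299). Whether the marker genes move with the HOX values was not tested.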

How the data were processed

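RNA-seq libraries of AB8 cells were compared, 4 non-induced and 4 induced. The deposited table of raw read counts holds whole reads per Ensembl gene. The authors also deposited a table of normalized signal, equal to the counts over 1 factor per library, used here only as an alternative for levels. The builds hg38 and GRCh38 and the tools HTSeq 0.11.1, HISAT2 2.1.0, DESeq2 1.24.0, Trimmomatic 0.38 and bcl2fastq are named by the submitters' processing notes. Neither annotation release nor strand setting is given in the sources used here. Of 58395 gene identifiers, 58275 matched GENCODE release 29, which gave names, exon lengths and overlaps.

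The filter filterByExpr (minimum count 10) kept 15637 genes. With TMM scaling, edgeR 4.0.16 (R 4.3.3) gave two-sided robust quasi-likelihood tests, with Benjamini-Hochberg adjustment over all tested genes and an FDR of 0.05. CPM use the TMM-scaled totals. Members and lists (236 of 239 list entries matched, in 14 lists) were chosen with earlier results of these data known. Tested members were named, and from each list up to 4 called genes of smallest p in the block fit, or up to 2 where 0 were called. EZH2, PBX2, PBX3, MEIS2, HOTAIR, HOTTIP, ITGA8, EYA1, COL1A1, THY1 and LUM were added after their values were seen. So were HAGLROS, EVX2, WT1, LNPK, MTX2, SUZ12, PCGF2 and PODXL. Some genes counted here are not reported by name.

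The replicate numbers are shared by the groups, and the labels do not say what they stand for. Deviations from the group means correlated at 0.911, 0.704, 0.707 and 0.648 between same-numbered libraries over 11502 genes (highest with another number -0.617, 0.667, 0.667 and 0.462), so the numbers were taken as pairs, and a replicate block fit is given where it changed a call. Both libraries numbered 1 stand apart, which alone raises such correlations. Alternatives were DESeq2 1.42.0, other scalings and filters, other exon lengths, and each library, pair or both libraries numbered 1 left out. No run of 75 bases, the read length, was shared by any of 734 pairs of members that do not overlap. The script was tested on simulated counts with known changes.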

Additional observations from a re-analysis of the deposited data

Results flagged for a closer look

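Within groups of 4 libraries, the gap between the highest or lowest library and its nearest neighbour was compared with the whole range of the group for the 32 tested HOX genes, 64 groups in all. In 5 groups 1 library stood far from the other 3 by this measure, where chance gives about 1 in 20 groups, or 3.2 of 64. In 4 of the 5 it was a library numbered 1. HOXB9 stood at 82.3 CPM in non-induced library 1 and at 87.6 CPM in induced library 1, each the highest of its group. HOXB8 stood at 8.49 CPM in induced library 1, the highest of its group, and HOXD1 at 1.64 CPM in non-induced library 1, the lowest of its group. HOXA6 stood at 2.05 CPM in induced library 4, the highest of its group. The measure did not single out HOXD10 or HOXD11, whose other 3 libraries also differed among themselves.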

How the results depend on the processing

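With the replicate block, 2 members were called higher with edgeR at an FDR of 0.05 and 0.1, with DESeq2, with each scaling and filter and with each pair left out (lowest 2, highest 2), and in each of these fits the 2 were HOXA10 and HOXA11. Without both libraries numbered 1 and without a block 1 was called higher, and 0 in every other fit without a block, each library left out included. With the block 1 member was called lower when no filter was used (HOXD11, log2 change -0.48, edgeR adjusted p = 0.0437) and 4 at an FDR of 0.1. Over the settings run, the adjusted p ranged from 1.50e-05 to 0.729 for HOXA10 and from 0.000125 to 0.688 for HOXA11. Over the lists, the replicate block gave 20 genes higher and 10 lower, and with a pair left out 14, 20, 16 and 10 higher and 12, 9, 6 and 6 lower; DESeq2 without a block gave 2 and 1. Estimates that were not called changed sign 48 times, in 12 members, and the changes fell in 14 of the settings run. None of these members was above 0.34 in size on the log2 scale in the fit without a block.

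With the longest transcript as length the cluster means were 69.5 CPM per kb for HOXA, 78.2 for HOXB and 33.9 for HOXC, and with exon bases free of other genes 80.6 for HOXA, 68.9 for HOXB, 30.9 for HOXC and 21.4 for HOXD, since shorter lengths raise a level per kb. HOXC4 led HOXC with the former (9.002 CPM per kb) and HOXD8 led HOXD (5.34). The block with scaling, filter or FDR changed, and leaving out both libraries numbered 1, were chosen after seeing the data. Low counts limit HOXA13, HOXD10 and HOXD11, and 7 members were not tested.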
